A study of Mus musculus with 8 samples.

Results

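The insulin-like growth factor (IGF) genes described here are the ligands Igf1 and Igf2, the receptors Igf1r and Igf2r, and the binding proteins Igfbp2, Igfbp3, Igfbp4, Igfbp5, Igfbp6 and Igfbp7. They were chosen by gene symbol, with earlier results of these data known, and all 10 had a row among the 24988 genes of the deposited table. The study compared RNA of adult mouse testis between 4 libraries labelled Kpna2-/- and 4 labelled wild type (WT), in a series on gene expression in Kpna2 knockout testis. Kpna2 encodes an importin alpha, an adaptor for the import of proteins into the nucleus. Strain, age beyond adult and the way the knockout was made are not given in the labels or files. Whether each library stands for its own animal is not stated, and p-values therefore measure only the spread between these libraries.

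IGF1 and IGF2 are secreted peptides that act on cells mainly through the receptor tyrosine kinase encoded by Igf1r, whereas the IGF2 receptor takes IGF2 up and delivers it to lysosomes. IGF binding proteins hold the peptides outside the cell, and proteases that cut the binding proteins set the peptides free. In the testis, somatic cells such as Leydig and Sertoli cells are known sources of IGF1, and IGF signalling is known for its part in Leydig cell maturation and Sertoli cell number.

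Of the 9 members that could be tested, 6 fell in the libraries labelled knockout, none rose and 3 did not pass the test. Those that fell were the ligand Igf1 and the binding proteins Igfbp2, Igfbp3, Igfbp4, Igfbp5 and Igfbp6, by 1.25-fold to 3.41-fold. Igf1r, Igf2r and Igfbp7 did not pass, and Igf2 was too low to be tested. The call was a limma adjusted p (Benjamini-Hochberg over 22027 genes) under 0.05 on log2(CPM + 0.5), where CPM is a read count scaled by library size. Of all genes tested, 16.9% were called, 8.32% lower and 8.62% higher. The median log2 fold change was -0.47 over the 9 tested members and -0.01 over all tested genes. Because the list was chosen with earlier results known, these contrasts with all genes are a description only. Fold changes on this log2 scale are knockout label minus wild-type label and understate the change of low genes, whereas folds are ratios of mean CPM.

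The 4 values of one group lay wholly below or above the 4 of the other for 7 members. The knockout group was the lower one for the 6 called members and the higher one for Igf2. Over all tested genes, groups without overlap were seen in 10.7% in the lower and 10.1% in the higher direction. Counts of recovered reads gave a like picture for the members: edgeR's quasi-likelihood test called the same 6 members and 16.8% of all genes, and DESeq2 called 5 members, without Igfbp6, and 18.1% of all genes.

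**Figure D1:**
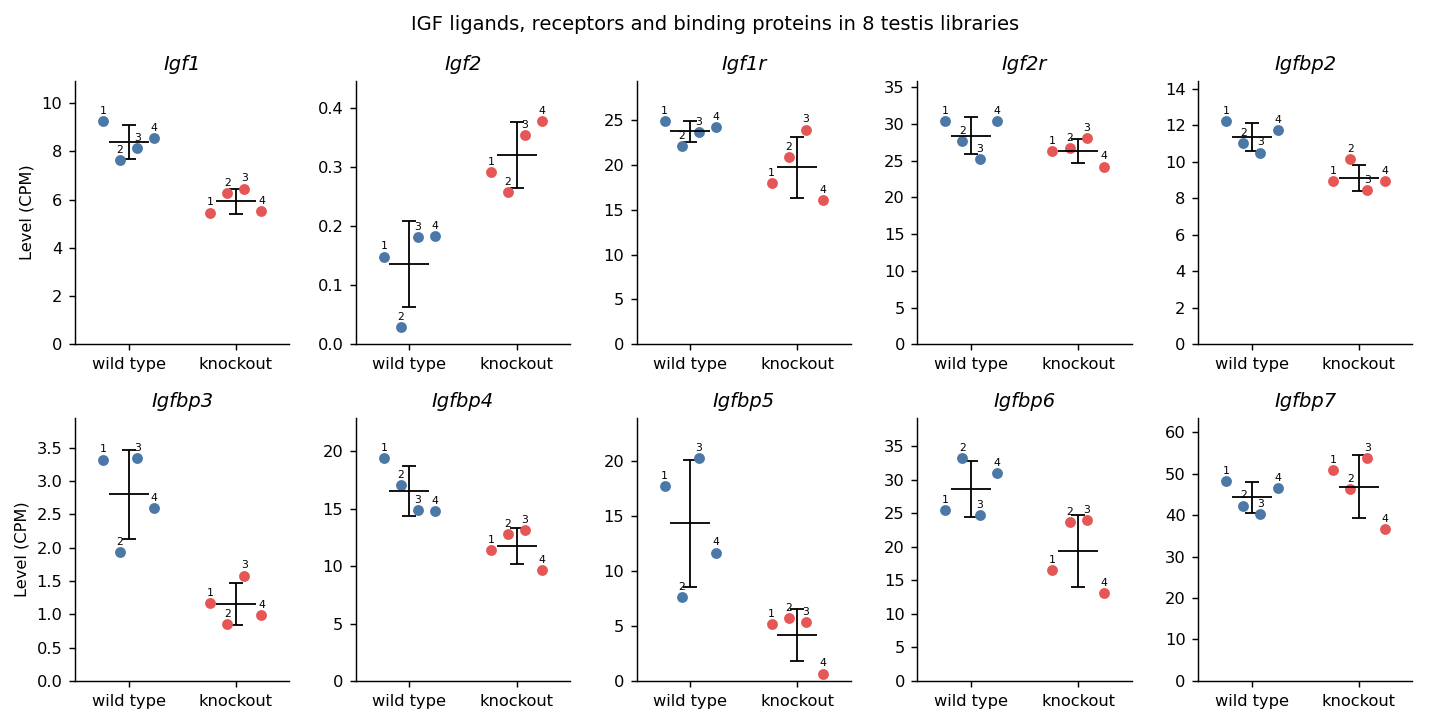
Level of each IGF gene in CPM (vertical axes, linear from 0) in the 4 libraries labelled wild type (blue) and the 4 labelled knockout (red), with the library number above each point and the mean ± SD as bars. The groups overlap for Igf1r, Igf2r and Igfbp7, Igf2 is higher in all 4 libraries labelled knockout, and library 4 has the lowest knockout value for 6 of the 10 genes.

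The libraries held 31133443 to 37797812 reads assigned to genes, so that 3 reads, taken as the floor of detection, correspond to 0.0786 to 0.0968 CPM (counting error only). The targeted gene went against its label. Kpna2 had 13.97, 15.1, 14.04 and 12.4 CPM in wild-type libraries 1 to 4, against 15.3, 20.2, 19.4 and 21.7 CPM in libraries 1 to 4 with the knockout label. The means were 13.9 ± 1.11 and 19.2 ± 2.76 CPM (SD, n = 4 each), and the exact two-sided permutation test gave p = 0.029, the smallest that 70 assignments allow. Such gene totals cannot tell whether the reads come from an intact gene, nor whether the group labels are right, and neither was tested. Groups are therefore called by their labels throughout, and every direction given here rests on those labels. Markers of round spermatids (4 of 4) and elongating spermatids (4 of 4) and 7 of 7 Sertoli cell markers were present in every library, and none of 4 epididymis markers had a row.

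Promoter sequence is shown for Igfbp3 and Igfbp5, the members with the largest falls. The 120 bases before the RefSeq start site are given 5′ to 3′ on the gene's own strand, in GRCm38.p6. Capitals mark letters that match TATANA, the TATA-box-like motif searched on both strands.
Igfbp3: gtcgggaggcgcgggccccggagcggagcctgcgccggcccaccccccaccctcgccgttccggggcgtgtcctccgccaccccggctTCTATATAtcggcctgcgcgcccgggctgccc
Igfbp5: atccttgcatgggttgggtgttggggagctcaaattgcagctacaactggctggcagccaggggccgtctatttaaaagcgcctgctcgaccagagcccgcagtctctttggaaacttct
The Igfbp3 stretch lies at chr11:7213924-7214043 on the minus strand and the Igfbp5 stretch at chr1:72874866-72874985 on the minus strand. In the Igfbp3 stretch 3 overlapping matches form one run, and the Igfbp5 stretch held no match to any of the 5 motifs searched. Its run tatttaaaa differs in letters from TATANA and was not counted, so the search cannot show that a TATA-like element is missing. The RefSeq start of Igfbp5 lies inside the gene range given below, which runs to 72874884, so the Igfbp5 stretch covers part of that range.

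All 10 members had RefSeq promoters, with 14 start sites in all, and motifs were searched in the 250 bases before each start on both strands. TATANA was found before 3 of the 14 start sites (Igfbp3, Igfbp4 and Igfbp6) and before 22.6% of the 32851 start sites of all genes. GGGCGG, the GC box, was found before 6 of the 14, of Igf1r, Igf2, Igf2r, Igfbp2 and Igfbp7, and before 32.7% of all. CCAAT occurred at 3 of the 14 (33.8% of all), the AP-1 letters TGANTCA at 2 (6.75% of all) and the E-box CACGTG at 2 (6.02% of all). These matches describe letters only.

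Igf1 (ENSMUSG00000020053; chromosome 10, 87858265 to 87937042, plus strand, in GRCm38), the ligand known as the mediator of growth hormone action, fell. Its level was 9.26, 7.62, 8.15 and 8.54 CPM in wild-type libraries 1 to 4 and 5.46, 6.26, 6.46 and 5.53 CPM in libraries labelled knockout 1 to 4, from 187 to 326 reads each. The lowest wild-type value stood above the highest knockout value. The mean was 8.39 ± 0.688 CPM in wild type and 5.93 ± 0.507 CPM in the knockout group (SD, n = 4 each), a 1.42-fold fall. Its log2 fold change of -0.47 (SE 0.10) had a limma adjusted p of 0.0040, and the call held in all 17 alternatives of the analysis. Igf1 shares 5117 bases with the antisense gene Igf1os, which had no row, and whether the counting used strand is not known. In bulk tissue, fewer cells of a type and less RNA per cell cannot be told apart, here and for each member below.

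Igf2 (ENSMUSG00000048583; chromosome 7, 142650766 to 142666816, minus strand), the imprinted ligand known for fetal growth, was near the floor of detection. It had 5, 1, 6 and 7 reads in the wild-type libraries and 10, 9, 11 and 13 reads in those labelled knockout. In CPM this was 0.148, 0.0289, 0.181 and 0.183 against 0.292, 0.257, 0.355 and 0.378, so every knockout value was above every wild-type value. Over the groups, 43 against 19 reads gave a ratio of 2.35 with a 95% interval of 1.34 to 4.27 that covers counting error only. With no filter on low values the log2 fold change was 0.37 (SE 0.13) with a limma adjusted p of 0.073, which missed the threshold. Igf2 is overlapped on its own strand by the protein-coding gene Gm49394 (16048 bases) and by Mir483 (73 bases), and on the other strand by Igf2os (7124 bases). None of these had a row in the table, and how reads in shared sequence were assigned is not stated, so the level of Igf2 is uncertain.

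Igf1r (ENSMUSG00000005533; chromosome 7, 67952827 to 68233668, plus strand), the signalling receptor, had a lower mean in the knockout group without passing the test. Wild-type libraries 1 to 4 had 24.9, 22.2, 23.7 and 24.3 CPM, and those labelled knockout had 18.0, 20.9, 23.95 and 16.1 CPM. Library 3 labelled knockout lay among the wild-type values and the other 3 lay below them. The log2 fold change of -0.28 (SE 0.10) had a 95% interval of -0.49 to -0.06 and a limma adjusted p of 0.078. Without library 3 labelled knockout it was -0.37 with an adjusted p of 0.011, the one alternative of 17 in which it was called.

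Igf2r (ENSMUSG00000023830; chromosome 17, 12682406 to 12769664, minus strand), the clearance receptor for IGF2 and a carrier of lysosomal enzymes, had 30.4, 27.7, 25.2 and 30.4 CPM in wild type and 26.3, 26.7, 28.1 and 24.2 CPM under the knockout label. The groups overlapped. Its log2 fold change of -0.11 (SE 0.07; 95% interval -0.26 to 0.05) had a limma adjusted p of 0.36, and it was called in none of the 17 alternatives. Igf2r shares 28354 bases with the antisense gene Airn, which stood at 0.285 ± 0.124 CPM in wild type and 0.385 ± 0.0568 CPM under the knockout label. Whether the counting used strand is not known from the labels, and without strand the reads of such pairs cannot be told apart.

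**Figure D2:**
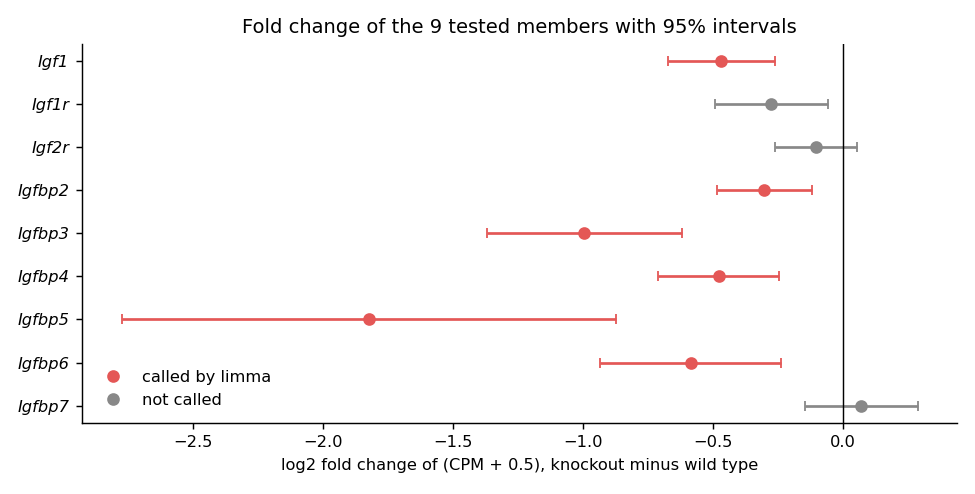
Log2 fold change of (CPM + 0.5), libraries labelled knockout minus wild type (horizontal axis), of the 9 tested IGF genes, with limma's 95% interval as bars; red marks the 6 genes called. The intervals of Igf2r and Igfbp7 span 0, and that of Igfbp5 (-2.78 to -0.87) is the widest.

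Among the binding proteins, 5 of 6 fell (beside 8.32% of all tested genes called lower), and Igfbp5 and Igfbp3 did so most. Igfbp5 (ENSMUSG00000026185; chromosome 1, 72857932 to 72874884, minus strand), a binding protein that also attaches to extracellular matrix, had 17.7, 7.62, 20.3 and 11.7 CPM in wild type. Under the knockout label it had 5.14, 5.69, 5.33 and 0.669 CPM, the last from 23 reads. The groups did not overlap, but wild-type library 2 was close to the knockout values and library 4 labelled knockout was far below the other 3. The means were 14.3 ± 5.75 and 4.21 ± 2.37 CPM (SD, n = 4 each), with coefficients of variation of 40.1% and 56.3%. The fall was 3.41-fold, and the log2 fold change of -1.82 (SE 0.44) had a limma adjusted p of 0.011. Without library 4 labelled knockout the fall was 2.66-fold, from 14.3 to 5.39 ± 0.282 CPM (n = 3), with a log2 fold change of -1.24 (limma adjusted p = 0.0041). The call was lost when limma was run without a variance trend (adjusted p = 0.053).

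Igfbp3 (ENSMUSG00000020427; chromosome 11, 7206086 to 7213923, minus strand) encodes the main carrier of IGFs in blood. It had 3.32, 1.94, 3.35 and 2.59 CPM in wild type (67 to 112 reads) and 1.17, 0.858, 1.58 and 0.990 CPM under the knockout label (30 to 49 reads). No knockout value reached the lowest wild-type value. Its mean fell 2.44-fold, from 2.80 ± 0.675 to 1.15 ± 0.315 CPM (SD, n = 4 each), with a log2 fold change of -0.995 (SE 0.17) and a limma adjusted p of 0.0014, the smallest among the members. The call held in the 16 alternatives that tested it, with adjusted p from 6.2e-06 to 0.0064, whereas a filter at a mean of 2 CPM left the gene out.

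Igfbp4 (ENSMUSG00000017493; chromosome 11, 99041244 to 99054392, plus strand), the classical substrate of the protease PAPP-A, had 19.4, 17.0, 14.9 and 14.8 CPM in wild type. Its values under the knockout label were 11.4, 12.8, 13.1 and 9.66 CPM, all below the wild-type values. The mean fell 1.41-fold, from 16.5 ± 2.19 to 11.7 ± 1.57 CPM (SD, n = 4 each). The log2 fold change was -0.48 (SE 0.11) with a limma adjusted p of 0.0076, and the call held in all 17 alternatives.

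Igfbp2 (ENSMUSG00000039323; chromosome 1, 72824503 to 72852474, plus strand), another carrier of both ligands, fell less. Wild-type libraries had 12.2, 11, 10.5 and 11.7 CPM and those labelled knockout had 8.93, 10.2, 8.46 and 8.94 CPM. The groups were separated by the small gap between wild-type library 3 and knockout library 2. The mean fell 1.25-fold, from 11.4 ± 0.764 to 9.12 ± 0.725 CPM (SD, n = 4 each), with a log2 fold change of -0.30 (SE 0.09) and a limma adjusted p of 0.026. The call was lost without wild-type library 1 (limma adjusted p = 0.083) or 4 (0.063) and without knockout library 3 (0.067) or 4 (0.057). Igfbp2 and Igfbp5 are neighbours on chromosome 1, on opposite strands with 5457 bases between them.

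Igfbp6 (ENSMUSG00000023046; chromosome 15, 102144362 to 102149511, plus strand), which prefers IGF2 to IGF1, had 25.5, 33.3, 24.7 and 31.0 CPM in wild type. Its values under the knockout label were 16.6, 23.7, 23.95 and 13.1 CPM. Knockout libraries 2 and 3 lay just under the lowest wild-type values, and libraries 1 and 4 lay well below. The mean fell 1.48-fold, from 28.6 ± 4.17 to 19.3 ± 5.38 CPM (SD, n = 4 each), with a log2 fold change of -0.59 (SE 0.16) and a limma adjusted p of 0.023. The call held in 11 of 17 alternatives. It was lost without wild-type library 2 (limma adjusted p = 0.073) or 4 (0.065), without knockout library 1 (0.058) or 4 (0.053), without limma's variance trend (0.078) and in DESeq2 (0.062).

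Igfbp7 (ENSMUSG00000036256; chromosome 5, 77349240 to 77408041, minus strand), a relative with low affinity for IGFs that is known from vessel walls, was the binding protein that did not pass the test. It had 48.3, 42.3, 40.2 and 46.6 CPM in wild type and 51.0, 46.3, 53.8 and 36.6 CPM under the knockout label. Knockout library 4 was the lowest of the 8 and knockout library 3 the highest. The log2 fold change of 0.07 (SE 0.10; 95% interval -0.15 to 0.29) had a limma adjusted p of 0.70, and no alternative called it. Igfbp7 overlaps the opposite-strand genes Polr2b by 85 bases and Gm34648 by 7085 bases.

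The libraries labelled knockout differed among themselves for some members and little for others. Coefficients of variation in the knockout group were 56.3% for Igfbp5, 8.55% for Igf1 and 7.95% for Igfbp2. Knockout library 4 held the lowest value of all 8 libraries for 6 of the 10 members (Igf1r, Igf2r, Igfbp4, Igfbp5, Igfbp6 and Igfbp7), and knockout library 3 was the highest of its group for 7 of 10. Of these 6, Igf1r, Igf2r and Igfbp7 were not called. How often these libraries were lowest or highest over all genes was not counted, so the counts are a description only. Without knockout library 4, limma called 4 members lower in place of 6, since Igfbp2 and Igfbp6 missed the threshold. Without wild-type library 4 the count was also 4.

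Levels can be set beside each other between genes only per length, as CPM per kilobase of exon. In wild type the order ran from Igfbp7 (36.7 ± 3.09) and Igfbp6 (25.7 ± 3.75) through Igfbp2 (6.15 ± 0.414) and Igfbp4 (3.75 ± 0.496) to Igf2r (3.05 ± 0.266). Below these stood Igfbp5 (2.39 ± 0.957), Igf1r (1.41 ± 0.0699), Igfbp3 (0.895 ± 0.216), Igf1 (0.847 ± 0.0694) and Igf2 (0.0237 ± 0.0127), all SD with n = 4. Neighbours whose library values overlapped were Igf2r with Igfbp5, Igfbp5 with Igf1r and Igfbp3 with Igf1. Igfbp4 and Igfbp5, not neighbours in this order, overlapped slightly too (lowest Igfbp4 value 3.35, highest Igfbp5 value 3.38). The order within these pairs is not settled. The last place of Igf2 is uncertain because of the genes that overlap it.

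Summed over the 6 binding proteins, reads came to 113 to 127 CPM in wild-type libraries (mean 118 ± 6.13) and to 69.96 to 106 CPM under the knockout label (92.5 ± 15.8; SD, n = 4 each). Without Igfbp7 the sum was 73.7 ± 3.29 CPM in wild type and 45.5 ± 9.30 CPM in the knockout group. Igfbp7 supplied 37.6% ± 1.71 of the binding protein reads in wild type and 50.9% ± 3.24 under the knockout label, ranges of 35.3 to 39.4% and 46.5 to 54.1% that did not overlap. Igfbp5 supplied 12.1% ± 4.83 and 4.29% ± 2.24. These are shares of reads, not of molecules, and no test was made of them, because they combine genes already tested one by one.

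**Figure D3:**
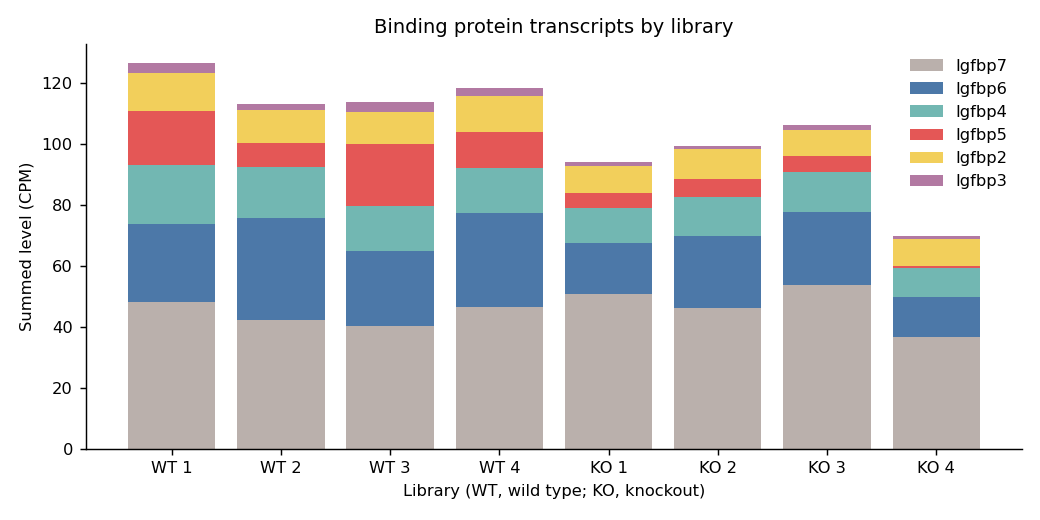
Summed level in CPM (vertical axis, from 0) of the 6 IGF binding protein genes in each library (WT, labelled wild type; KO, labelled knockout), with 1 colour a gene. The grey Igfbp7 segment ranges from 36.6 to 53.8 CPM, and the summed segments above it are shorter in each of the 4 libraries labelled knockout.

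Markers of several somatic cell types were lower in the same libraries, beside 8.32% of all tested genes called lower. Of the fibroblast and interstitial mesenchyme markers, 6 of 7 were called lower by limma, and their summed level was 133 to 167 CPM in wild type and 46.7 to 86.0 CPM under the knockout label. In percent of the wild-type mean, the knockout libraries 1 to 4 stood at 48.6%, 58.8%, 58.0% and 31.9% for these markers and at 35.9%, 39.7%, 37.2% and 4.67% for Igfbp5, and library 4 was the lowest for both. Library 4 was also the lowest knockout library for the summed myoid, endothelial, Sertoli, adipocyte and mesothelial markers. The myoid values differed little, from 77.6% to 80.7%. Leydig and macrophage markers were lowest in library 1 (55.2% and 77.7%, against 68.5% and 98.6% in library 4), and red blood cell markers in library 3 (52.6%). Elongating spermatid markers were highest in library 4 (112%), and Igfbp3 was lowest in library 2. In wild-type libraries 1 to 4 the fibroblast markers stood at 114%, 90.8%, 92.3% and 103% of their mean, so that library 3, the highest for Igfbp5, was below the mean for these markers. Mesothelial markers, 3 of 4 called lower (Msln, Upk3b and Krt19), summed to 8.69 to 19.1 CPM in wild type and 6.43 to 10.3 CPM under the knockout label. The groups overlapped for each of the 4 mesothelial markers and for their sum. In wild-type libraries 1 to 4 the mesothelial markers stood at 134%, 61.1%, 119% and 85.4% of their mean, beside 124%, 53.2%, 142% and 81.4% for Igfbp5 and 119%, 69.1%, 120% and 92.6% for Igfbp3. For the mesothelial markers, Igfbp5 and Igfbp3, wild-type libraries 1 and 3 were above the mean and library 2 was the lowest. Knockout libraries 1 to 4 stood at 57.4%, 72.1%, 59.2% and 45.2% for the mesothelial markers and at 41.7%, 30.6%, 56.5% and 35.3% for Igfbp3. Knockout library 2 was thus the highest of its group for the mesothelial markers and Igfbp5 but the lowest for Igfbp3.

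Of 6 Leydig cell markers, 4 were called lower and 1, Hsd3b1, higher, with sums of 592 to 786 CPM in wild type and 367 to 613 CPM under the knockout label. Of the peritubular myoid markers 4 of 6 were called lower, of the endothelial markers 2 of 6, of the Sertoli markers 2 of 7, of the adipocyte markers 1 of 5, of the red blood cell markers 1 of 4 and of the macrophage markers none of 6. Among germ cells, 1 of 4 pachytene markers was called lower and none of the round or elongating spermatid markers. Of all tested genes, 8.32% were called lower and 8.62% higher by limma. A list with 1 call among 4 or 5 genes therefore says little about its cell type. No defining marker of these cell types was at 0 in any library except the adipocyte gene Cfd, which was at 0 in knockout library 4. The part of these marker changes in the values of Igf1 and the binding proteins was not tested.

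**Figure D4:**
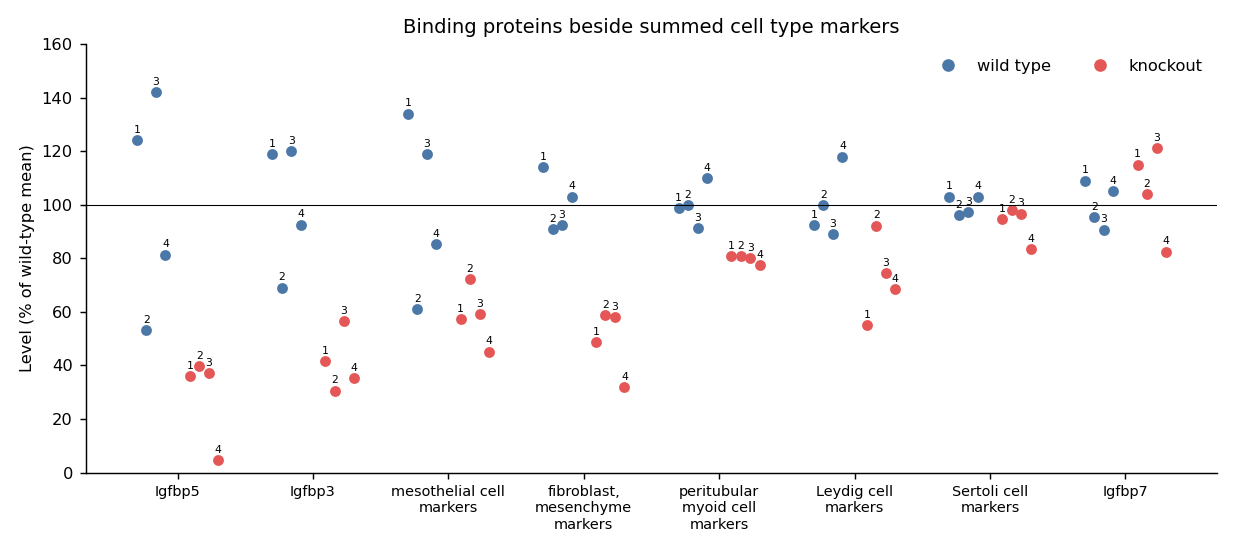
Level in each library as a percent of the mean of the 4 libraries labelled wild type (vertical axis, from 0) for Igfbp5, Igfbp3 and Igfbp7 and for summed markers of 5 cell types; blue, wild type; red, labelled knockout; digits are library numbers. Igfbp5, Igfbp3 and the mesothelial markers share high wild-type libraries 1 and 3 and a low library 2, and Igfbp7 lies between 82.5% and 121% throughout. Knockout library 2 is the highest of its group for Igfbp5 and the mesothelial markers but the lowest for Igfbp3.

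The genes whose library pattern was most like that of a called member were sought for the 4 called members with the smallest p. Likeness was the root mean square difference, over the 8 libraries, of log2(CPM + 0.5) relative to the wild-type mean. The 10883 genes compared averaged 5 CPM or more and had a symbol that was not a clone, predicted-gene, pseudogene or mitochondrial name. For Igfbp5 the nearest genes were the fibrillar collagen genes Col3a1 (difference 0.54), Col1a2 (0.65) and Col1a1 (0.66), all on the fibroblast marker list. Col3a1 went from 36.3 ± 5.52 to 11.7 ± 3.48 CPM. For Igfbp3 they were Alad (0.20), Stat2 (0.21) and Lbp (0.23), of which Alad went from 44.7 ± 3.59 to 21.2 ± 2.18 CPM. Igf1 was matched most closely, by Cyp26b1 (0.05), Gusb (0.07) and Spns1 (0.08), and Cyp26b1, a retinoic acid degrading enzyme, went from 32.2 ± 2.91 to 22.9 ± 2.21 CPM. For Igfbp4 the nearest were Got1l1 (0.08), Lamb2 (0.09) and Rpl15 (0.10). None of these 12 genes was itself a member, but Igfbp3 and Igf2 averaged less than 5 CPM and could not be picked. The measure favours genes of a like fold change, so it is a description only.

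Beyond the members, 64 other genes of the IGF and insulin pathway were listed by role. Of these 59 had a row and 54 were tested, of which 8 fell, 2 rose and 44 did not pass the test. Their median log2 fold change was -0.11. The share called, 18.5%, was near the 16.9% of all genes. The roles below hold at most 18 tested genes each, so their counts are a description only. The count of 8 went down to 4 without wild-type library 1 and without wild-type library 4.

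Genes that act on the binding proteins outside the cell gave 3 of these falls among 6 tested (50.0%, beside 8.32% of all tested genes called lower). Htra1, a secreted serine protease known to cut IGF binding proteins, had 10.03, 8.87, 9.84 and 10.5 CPM in wild type and 5.40, 6.06, 5.36 and 5.04 CPM under the knockout label. All 4 knockout values lay well below the wild-type values. Its 1.79-fold fall, from 9.80 ± 0.672 to 5.46 ± 0.432 CPM, had a log2 fold change of -0.79 (SE 0.09) and a limma adjusted p of 5e-05. Stc2, a secreted inhibitor of PAPP-A, fell 1.81-fold from 1.73 ± 0.224 to 0.954 ± 0.259 CPM (limma adjusted p = 0.0096). Pappa, the gene of PAPP-A itself and named here after its values were seen, fell 1.22-fold from 27.6 ± 2.73 to 22.6 ± 1.98 CPM (limma adjusted p = 0.031). Its call held in 12 of 17 alternatives and was lost without wild-type library 1, 3 or 4 or knockout library 1 (0.059 to 0.094) and without the variance trend (0.074). The other 3 genes of this role did not pass the test, among them the paralogues, likewise named after their values were seen, Pappa2 (log2 fold change 0.04, limma adjusted p = 0.94) and Stc1 (-0.08, limma adjusted p = 0.84), and the signs of both turned when single libraries were left out. Igfals, the acid-labile partner of IGFBP3 in blood and likewise named after its values were seen, stood at 2.63 ± 0.197 and 1.94 ± 0.304 CPM with a limma adjusted p of 0.058. It was called in 2 of 17 alternatives (0.030 without knockout library 4 and 0.031 without the variance trend), and over all of them the adjusted p ran from 0.030 to 0.14.

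Of the 4 tested genes among the imprinted partners and the RNA-binding proteins named for Igf2 mRNA, 50.0% were called, beside 16.9% of all genes. In number, 1 fell, 1 rose and 2 did not pass the test. The 2 that did not, named after their values were seen, were Igf2bp2 (limma adjusted p = 0.17; 0.039 without wild-type library 2) and the imprinted non-coding RNA H19 (0.81). Igf2bp1 had 22.6, 20.8, 21.0 and 19.7 CPM in wild type and 8.64, 8.21, 7.68 and 8.73 CPM under the knockout label, with little spread in either group. The 2.53-fold fall (log2 fold change -1.29, SE 0.08) had a limma adjusted p of 6.9e-08, smaller than that of any member. Igf2bp3 rose 1.25-fold, from 113 ± 4.89 to 141 ± 8.44 CPM, with a log2 fold change of 0.32 (SE 0.05) and a limma adjusted p of 0.0010. Both calls held in all 17 alternatives. The counts of Igf2 beside them were those of the 19 and 43 reads above.

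In the branch of the insulin receptor and the adaptors, 2 of 10 tested genes fell (20%, beside the 16.9% of all genes called), namely Insr, the insulin receptor, from 28.4 ± 2.14 to 23.7 ± 2.48 CPM (limma adjusted p = 0.036) and the adaptor Grb2 from 13.9 ± 0.973 to 11.4 ± 0.738 CPM (limma adjusted p = 0.032). These were small falls, of 1.20-fold and 1.22-fold, and were called in 10 and 11 of 17 alternatives. The groups overlapped for Insr, through knockout library 1. Both calls were lost without wild-type library 1, 2 or 4 or knockout library 2 or 4 (limma adjusted p from 0.050 to 0.12). That of Insr was also lost without knockout library 3 (0.085) and without the variance trend (0.079), and that of Grb2 with a replicate block (0.058). Of the PI3K, AKT, FOXO and mTOR genes 1 of 18 was called (5.56%, beside the 16.9% of all genes). It was the transcription factor gene Foxo4, which rose 1.36-fold from 8.90 ± 0.421 to 12.1 ± 0.848 CPM (limma adjusted p = 0.0024). Foxo4 was called in all 17 alternatives. None of the 5 growth hormone axis genes (Ghr, Jak2, Stat5a, Stat5b and Socs2) and none of the 4 tested relaxin and insulin-like peptide genes was called.

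Of 6 tested relatives that carry an IGFBP domain, 2 fell (33.3%, beside 8.32% of all tested genes called lower). Ccn5, a secreted matrix-associated protein, had 6.29, 3.26, 3.65 and 5.45 CPM in wild type and 1.40, 2.32, 1.65 and 1.14 CPM under the knockout label, without overlap. It fell 2.87-fold, with a log2 fold change of -1.27 (SE 0.20) and a limma adjusted p of 0.00066, a fall between those of Igfbp3 and Igfbp5. Kazald1 fell 1.41-fold from 5.06 ± 0.326 to 3.60 ± 0.655 CPM with a limma adjusted p of 0.026, and was called in 14 of 17 alternatives, but not without wild-type library 1 (0.069) or 4 (0.066) or knockout library 3 (0.060).

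**Figure D5:**
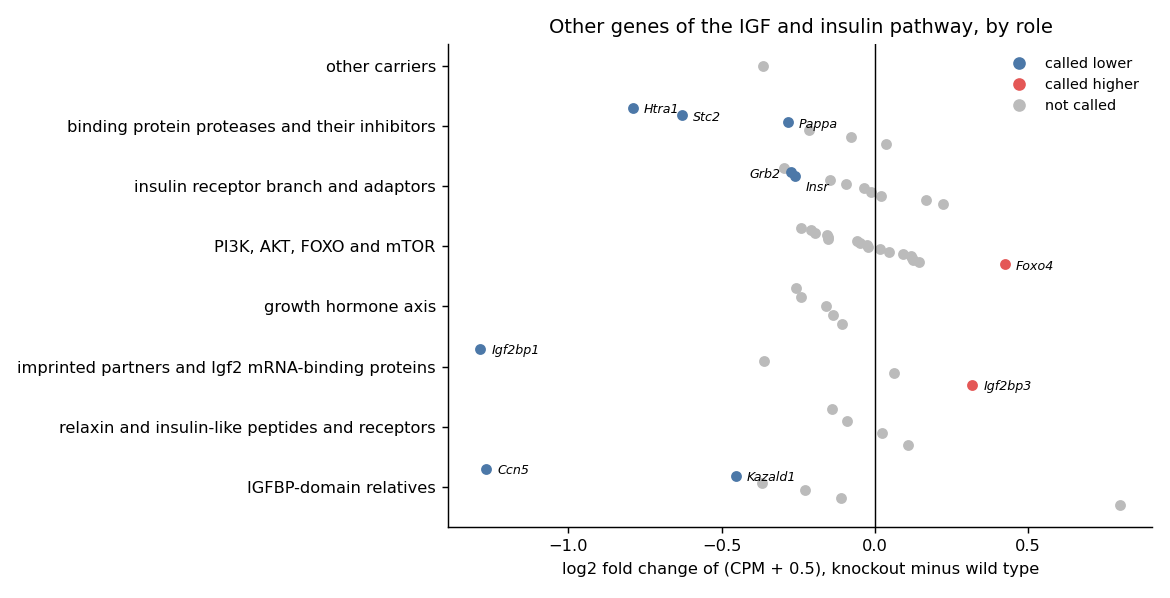
Log2 fold change of (CPM + 0.5), libraries labelled knockout minus wild type (horizontal axis), of the 54 tested pathway genes by role (rows); blue, called lower; red, called higher; grey, not called. Named are the 8 genes called lower and the 2 called higher; most points of the PI3K, AKT, FOXO and mTOR row lie near 0.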

How the data were processed

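Total RNA of adult testis was extracted with TRIzol, DNase treated and made into TruSeq libraries, per the labels' protocols. Trimmomatic, Subread, featureCounts and the build GRCm39 are named in the submitters' processing notes; their versions, the annotation and the strand setting are not given. The authors deposited a matrix of per-library scaled signal, named CPM in the file, for 24988 genes and 8 libraries. Columns named control were matched by number to the wild-type titles, taking control to mean wild type. Column sums were 990244 to 1025489, so the unit was treated as a scaled signal and not as plain CPM as planned, with the planned log-scale test kept. Within a tolerance of 0.01, 100% of values were whole multiples of the value of 1 read, which gave back the reads.

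The test was limma 3.58.1 (R 4.3.3) on log2(CPM + 0.5) with a variance trend, over genes averaging 0.5 CPM or more, Benjamini-Hochberg adjusted at 0.05, with no covariate. The 17 alternatives were median ratio scaling, pseudocounts of 0.1 and 2, no filter, a filter at 2 CPM, no variance trend, a replicate block, each library left out, and edgeR 4.0.16 and DESeq2 1.42.0 on recovered reads. The pipeline was also run on simulated data without outlying libraries, as a check of the code only. Chi-square per degree of freedom within group pairs was 4.63 to 11.7, so no library was a duplicate. Symbols were found for 24892 identifiers. Gene positions and exon lengths are from GENCODE M21 on GRCm38, another build than the authors', and were not converted; promoters are from RefSeq on GRCm38.p6. The rule for named genes was all members, the 2 pathway genes of smallest p in each direction per role, and 3 genes of most similar pattern for 4 members. Members, lists and rules were chosen with earlier results of these data known.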

Additional observations from a re-analysis of the deposited data

Results flagged for a closer look

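In 166 groups of 4 values (the members, the pathway genes, Kpna2, summed markers and the binding protein sum), 6 had a library that stood apart from the other 3 by Dixon's test, and chance flags about 1 in 20 groups. Among the members this was Igfbp5, at 0.669 CPM in knockout library 4 against 5.14 to 5.69 CPM in the other 3. Among pathway genes, Pappa stood at 19.6 CPM in knockout library 1 (others 23.3 to 23.8), Insr at 27.4 CPM in knockout library 1 (others 22.3 to 22.7) and Ccn1 at 7.52 CPM in knockout library 3 (others 1.46 to 1.95). In wild type, Irs2 was at 6.89 CPM in library 4 (others 8.90 to 9.12) and Socs2 at 4.88 CPM in library 2 (others 4.14 to 4.21). Igfbp5 without knockout library 4 is given above, and Ccn1, Irs2 and Socs2 were not called.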

How the results depend on the processing

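With single libraries left out, limma called 2788 to 3572 genes, 4 to 6 members lower and 0 higher, and 4 to 9 other pathway genes lower, the lowest count of 4 coming without wild-type library 1 and without wild-type library 4. The difference in Kpna2 ranged from 4.43 to 6.58 CPM, where the exact test cannot go below p = 0.057. Log2 fold changes of single genes kept their direction and their side of the threshold in 374 of the combinations of gene and alternative, missed it in 32, newly passed it in 4 and turned in 9. Those that turned were all of genes not called, and the cause was not tested. With single libraries left out, Igfbp7 ranged from -0.0015 (without knockout library 3) to 0.182, Pappa2 from -0.183 to 0.32, Stc1 from -0.265 to 0.0713 and H19 from -0.0041 to 0.13. Pappa2 was also at -0.005 with a pseudocount of 0.1 CPM. Replicate numbers did not pair the libraries (correlation of same-numbered deviations -0.03 to 0.04). Of the wild-type libraries, 0 of 4 correlated best with the knockout library of the same number. Of the knockout libraries, only library 2 correlated best with its own number (0.039), whereas wild-type library 2 correlated more with knockout library 4 (0.068). With a replicate block limma called 3446 genes in place of 3731, 6 members lower and 7 other pathway genes lower, Grb2 being lost. Depth limits Igf2, at 1 to 13 reads per library, and Igfbp3, at 30 to 112.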
